A study of Mus musculus with 6 samples.

Results

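The cells described here were Spp1-selected macrophages, 2887 of the 51633 cells that passed the cell filters in single-cell RNA sequencing of KPCA ovarian tumors from 6 mice. They were chosen by measured values: at least 5 unique molecular identifiers (UMIs, 1 per captured transcript) of Spp1 and Gpnmb together with at least 1 of Spp1, at least 5 of Lyz2 and at least 1 of Csf1r, at most 3 of the neutrophil genes Csf3r, Cxcr2, Retnlg and G0s2 together, and none of Cd3d, Cd3e, Cd3g or Cd79a. A cell passed the filters with at least 250 genes and at most 5% mitochondrial UMIs. The members were 1034 of 9075 cells in the control library, 297 of 7703 in 2DG, 491 of 9222 in 2FF, 304 of 8801 in anti-PD-L1, 291 of 9026 in 2DG plus anti-PD-L1 and 470 of 7806 in 2FF plus anti-PD-L1, and values are given in this order throughout.

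KPCA cells, a mouse ovarian cancer line proficient in homologous recombination with altered Trp53, Ccne1 and Akt2 among other changes, were injected orthotopically into female C57BL/6 mice, of 6 to 8 weeks by the study's methods. The series text speaks of young and aged mice, and the sample labels give no age. 2DG is 2-deoxy-D-glucose, a glucose analog that the study used to inhibit branched N-glycans, given intraperitoneally from day 9 as was the anti-PD-L1 antibody. 2FF is 2-fluoro-fucose, an inhibitor of fucosylation, given by oral gavage to mice whose tumor cells had also been pretreated with it. The control mouse received solvent and control rat IgG, all tumors were taken on day 30, and the control and anti-PD-L1 libraries served both inhibitors. Each library was 1 mouse, so no single treatment had a replicate and the antibody could be tested only over 3 backgrounds, and a difference between 2 libraries cannot be told apart from one between 2 mice or 2 preparations. The sample labels name lymph node as the tissue. Over all cells that passed, the lymph node stroma genes Ccl19, Ccl21a and Madcam1 had 0 to 6 UMIs each per library and Cr2, which B cells also make, 77 to 311. In the members, which as macrophages would make none of these in either tissue, the first 3 had no UMI and Cr2 had 0 to 6.

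Spp1 encodes osteopontin, a secreted phosphoprotein that binds integrins and CD44, and is made by macrophages of many tumors. Gpnmb encodes a lysosomal and cell surface glycoprotein of macrophages. Tumor macrophages arise largely from blood monocytes, marked by Ly6c2, and can mature into cells that make complement C1q and present antigen on MHC class II.

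Between 61859753 and 73885214 UMIs were counted per library, and the members held 14214235, 3930704, 6124925, 3401832, 3308293 and 6207526 UMIs in all. The median member had 13189.5, 12656, 11615, 10710, 10542 and 12231.5 UMIs. The control library stood apart from the others before any gene was compared: 407 of its cells were T cells (at least 2 UMIs of Cd3d, Cd3e and Cd3g) against 1811 to 2863 in the others, and 2443 were neutrophils (at least 10 UMIs of the 4 neutrophil genes) against 164 to 323. Of the barcodes, 389 occurred in more than 1 library, 36 members had a barcode that another library also held, and 0 barcodes were members in more than 1 library.

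The members made up 11.4% of the cells that passed in the control library (95% exact Clopper-Pearson interval 10.7 to 12.1, covering counting error only), 3.86% in 2DG (3.44 to 4.31), 5.32% in 2FF (4.87 to 5.80), 3.45% in anti-PD-L1 (3.08 to 3.86), 3.22% in 2DG plus anti-PD-L1 (2.87 to 3.61) and 6.02% in 2FF plus anti-PD-L1 (5.50 to 6.57). The control share lay above all others, and those of 2DG, anti-PD-L1 and 2DG plus anti-PD-L1 had overlapping intervals. Over the 12765 cells that met all limits other than those on Spp1 and Gpnmb, here called mononuclear myeloid cells, the shares were 47.8% (45.7 to 49.9), 17.9% (16.1 to 19.8), 24.1% (22.3 to 26.0), 12.8% (11.5 to 14.2), 11.7% (10.5 to 13.1) and 22.9% (21.1 to 24.8). Both denominators put the control first, followed by both 2FF libraries. Over the 3 pairs with and without anti-PD-L1, a test added after the data were seen, the share of all cells was 4.23% with and 6.86% without the antibody, lower in 2 of 3 pairs (difference -2.62 ± 4.65 percentage points, SD, two-sided exact permutation p = 0.75). In the 2FF pair, where it was higher, cells of at least 5000 UMIs were also thinned to 5000 and the limits applied anew. The share was then 3.57% with and 3.78% without the antibody, over 218 and 241 members in place of 470 and 491. The share of mononuclear myeloid cells was lower in 3 of 3 pairs (15.8% against 29.9%, exact permutation p = 0.25, the smallest that 3 pairs allow).

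**Figure D1:**
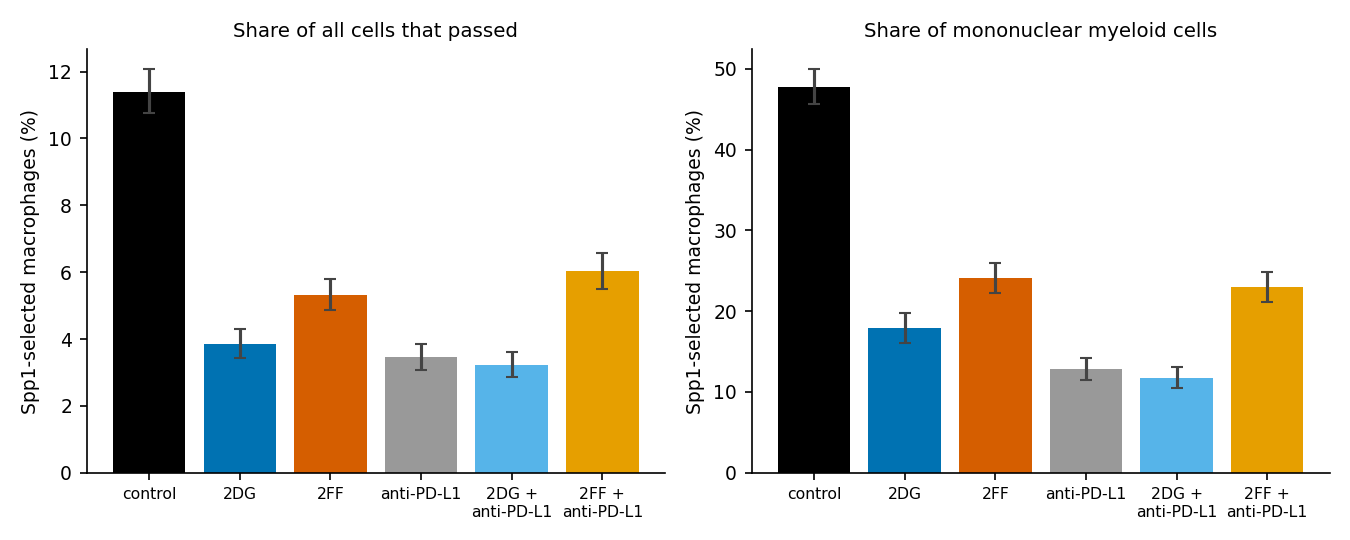
Share of Spp1-selected macrophages in each of the 6 libraries, in percent of all cells that passed the filters (left) and of mononuclear myeloid cells (right), with bars from 0 and 95% Clopper-Pearson intervals for counting error. The control bar stands at 11.4% on the left and 47.8% on the right, above every other library.

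The label of these cells was checked against Spp1, Gpnmb, Mmp12, Hmox1 and Pf4. Gpnmb played almost no part in the choice: 9.77, 1.68, 3.05, 1.64, 3.09 and 2.34% of members had a UMI of it, the median was 0 in every library, and 33, 1, 3, 1, 1 and 4 members had at least 5. Gpnmb stood at 31.7, 6.11, 6.2, 5.29, 10.6 and 8.54 CPM (UMIs of a gene per 1000000 UMIs summed) over the members, against 5012, 2774, 3133, 2933, 2171 and 3232 CPM for Spp1 (chromosome 5, 104435118 to 104441050, plus strand). The members are therefore named by Spp1 alone. The median member had 32, 20, 17, 16, 14 and 23 Spp1 UMIs, with a highest cell of 1058 in the control library. Lyz2 and Csf1r, the other genes that had to be present, averaged 2878 and 399.7 CPM over the 6 libraries. The members held 41.0, 47.8, 45.9, 37.0, 38.6 and 36.3% of each library's Spp1 UMIs.

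Spp1 was also seen outside macrophages. A UMI of Spp1 was seen in 20.6% of T cells of the control library and 7.29% of those of 2DG, at medians of 6326 and 6160 UMIs per cell. With each cell thinned to 2000 UMIs, Spp1 was seen in 8.36% and 2.80% of these T cells and in 91.1% and 84.7% of members. Neutrophils of the control held 834 CPM of Spp1, 37.5% of them with a UMI, and 8.13% of that library's Spp1 UMIs, and those of the other libraries 90.9 to 439 CPM. The few keratin-positive cells (at least 5 UMIs of keratins and Epcam and none of Ptprc), 11, 14, 3, 6 and 16 in the libraries after the control, held 3723, 2276, 2957, 4244 and 6311 CPM of Spp1, and the 1 such cell of the control had none. Values just inside and outside the limit are given without a test, since Spp1 chose the cells. In the control library, cells with 3 or 4 UMIs of Spp1 and Gpnmb held 1746 CPM of H2-Aa, an MHC class II chain, members with 5 or 6 held 1493 and members with 50 or more held 376. H2-Aa stood at 4138, 4393 and 1825 CPM in these ranges in 2DG and at 3980, 4280 and 2895 in 2FF, where it was slightly higher just inside the limit than just outside and the highest range was lower by a smaller ratio than in the control. Hmox1 stood at 409, 267 and 1287 CPM in the control.

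For tests within mice, the members were compared with 2 other kinds of mononuclear myeloid cell in the same 6 libraries, both with at most 1 UMI of Spp1 and Gpnmb together: 2502 C1q macrophages (at least 5 UMIs of C1qa, C1qb and C1qc) and 2312 Ly6c2 monocytes (at least 3 of Ly6c2 and at most 1 of the C1q genes). UMIs were summed per library and kind, and tested with edgeR's quasi-likelihood test with the mouse as a block. A gene was called at a Benjamini-Hochberg adjusted p under 0.05 and a change of at least 2-fold. Genes that defined a kind were left out of all counts. Against C1q macrophages, 220 of 11879 genes were higher in the members (1.85%) and 184 lower (1.55%). At an adjusted p under 0.05 and any size, 875 were higher (7.37%) and 756 lower (6.36%). Against Ly6c2 monocytes, 1361 of 11644 genes were higher (11.7%) and 758 lower (6.51%), and at any size 3164 (27.2%) and 2932 (25.2%). At an unadjusted p under 0.05, used below only for lists without a call, the shares of all genes were 14.1% higher and 13.7% lower against C1q macrophages and 30.1% and 27.6% against monocytes.

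The gene furthest above C1q macrophages was Inhba, which encodes the activin A chain (chromosome 13, 16011851 to 16031621, plus strand). It stood at 261, 96.7, 86.4, 196, 141 and 189 CPM in the members and at 14.9, 6.60, 16.1, 7.68, 26.6 and 24.7 CPM in the C1q macrophages, and the groups did not overlap. The fold change was 10.4 (log2 3.37, SE of the log2 ratio 0.37 over 6 mice, edgeR adjusted p = 0.000311). Nt5e, which encodes CD73, the enzyme that makes adenosine from AMP (chromosome 9, 88327197 to 88372092, plus strand), stood at 382, 129, 88.7, 229, 51.1 and 152 CPM against 24.9 ± 9.97 (SD, n = 6), a fold of 6.40 (edgeR adjusted p = 0.000995). The neutrophil-attracting chemokine Cxcl3 was 10.3-fold higher (edgeR adjusted p = 0.000311), with 737, 41.0, 34.0, 102, 114 and 146 CPM. The control value stood far above the other 5, and all 6 mice had more Cxcl3 in the members than in their own C1q macrophages. Pdpn, which encodes podoplanin, was 3.05-fold higher at 267 ± 55 against 99.3 ± 45.2 CPM (SD, n = 6, edgeR adjusted p = 0.00132). Also among the 12 highest were Slfn4 (log2 2.33), Cdh1 (log2 1.67), which encodes E-cadherin, and Il7r (log2 1.61). Genes of other cells, chosen after their values were seen, were called too: the keratin gene Krt8 and the neutrophil genes S100a8 and S100a9. Keratins and Epcam summed to 1.27, 5.09, 29.4, 2.06, 3.02 and 138.5 CPM in the members. In C1q macrophages they summed to 3.26, 3.18, 5.96, 5.19, 3.91 and 4.23 CPM. Krt8 was not called without 2FF or without 2FF plus anti-PD-L1, nor S100a8 and S100a9 without the block.

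**Figure D2:**
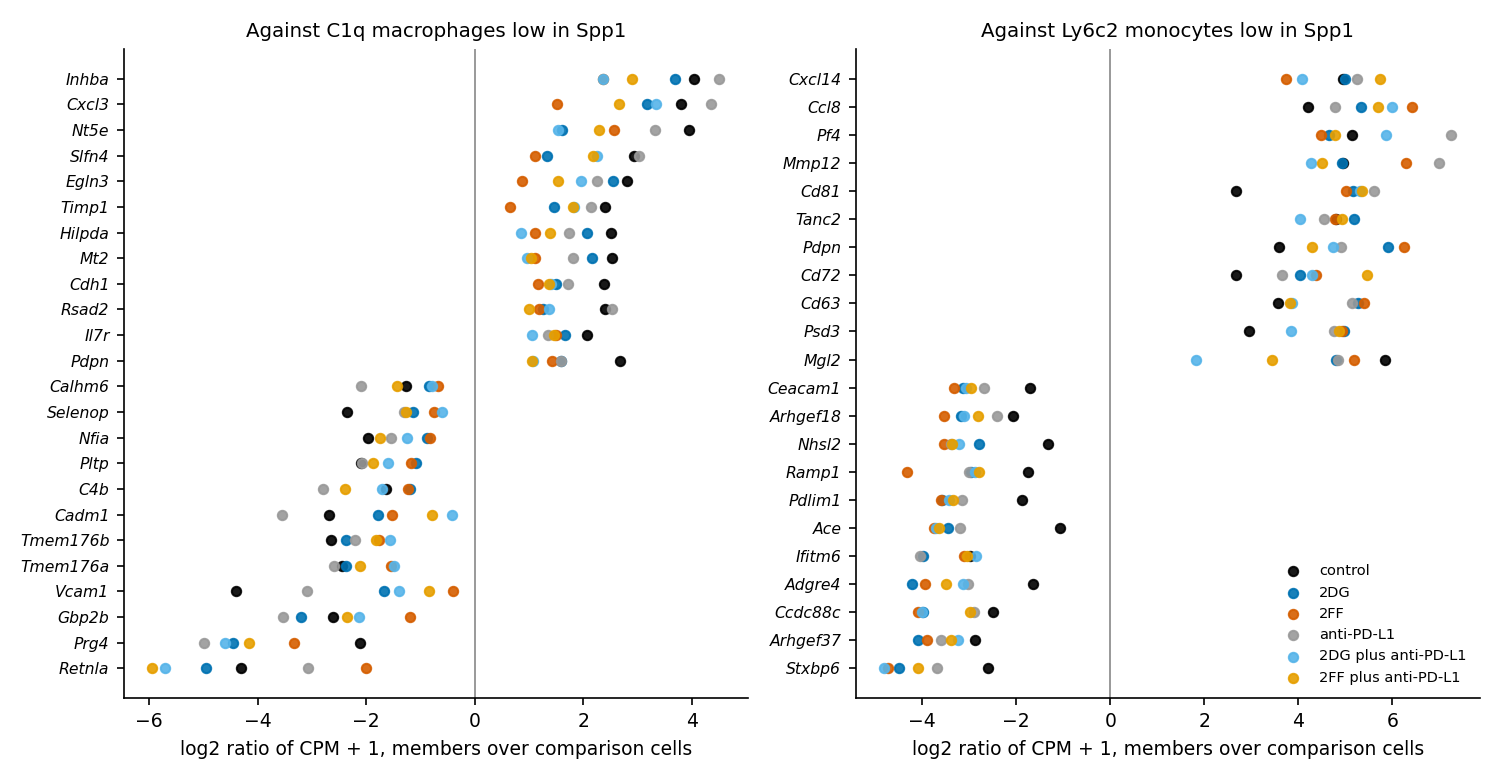
The 12 most raised and the 12 most lowered of the called genes in members against C1q macrophages, and 11 of each 12 against Ly6c2 monocytes, with 1 dot per mouse for the log2 ratio of CPM plus 1. Every dot of a gene lies on the same side of 0 by the rule that chose the genes. Inhba and Cxcl3 lead the higher genes and Retnla the lower ones on the C1q side.

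Hypoxia and angiogenic factors were the list with the highest median against C1q macrophages. Low oxygen stabilises HIF, a transcription factor that raises glucose uptake, glycolysis and vessel growth. Of 14 genes tested 7 were called higher and 0 lower, with a median log2 change of 1.13 beside -0.02 for all genes. Egln3, an oxygen-sensing hydroxylase that HIF induces (chromosome 12, 54178981 to 54203860, minus strand), stood at 283, 107, 64.8, 115, 48.1 and 74.1 CPM against 39.8, 17.6, 34.9, 23.5, 11.6 and 24.9. The groups did not overlap, and the fold was 4.36 (edgeR adjusted p = 0.000977). Hilpda, which encodes a lipid droplet protein, stood at 622, 163, 189, 153, 193 and 234 CPM against 79.1 ± 30.2 (log2 1.68, edgeR adjusted p = 0.00157). The angiogenic factor Vegfa stood at 315, 222, 155, 233, 146 and 217 CPM against 72.7, 78.0, 93.4, 94.4, 89.7 and 95.6, again without overlap (log2 1.32, edgeR adjusted p = 0.00241). Bnip3, a mitophagy receptor, was higher by log2 1.25, Ndrg1 by 1.31 and the oxidase Ero1l by 1.30. Adm, which encodes adrenomedullin, was called at the low level of 4.26 against 0.740 CPM. The glucose transporter Slc2a1 stood just under the limit of 2-fold, at 295 ± 77.5 against 153 ± 29.2 CPM (edgeR adjusted p = 0.00725). Without the control library, 7 of the 14 were again called higher and the median was 0.92.

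No call was made among the 14 glycolysis genes against C1q macrophages by edgeR or by DESeq2, but 12 passed the adjusted p in the members' favor and 0 against, at a median log2 change of 0.69. Pgk1, which encodes phosphoglycerate kinase, stood at 923, 777, 756, 832, 661 and 795 CPM against 320, 400.2, 558, 526, 384 and 482 (log2 0.91, edgeR adjusted p = 0.00392). Every member value lay above every C1q macrophage value. Gapdh averaged 2230.1 against 1475 CPM (log2 0.68), Aldoa 845 against 533 (log2 0.75) and Ldha, which encodes lactate dehydrogenase, 639 against 434 (log2 0.63). Without the control library the median of the list was 0.54.

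The start regions of 4 of these genes are shown because hypoxia and glycolysis genes were higher together, and HIF is known to bind the letters ACGTG. They are RefSeq promoters of GRCm38.p6, from 250 bases before to 50 after the start site, read 5′ to 3′ on the gene's strand. Capitals mark ACGTG on either strand, so CACGT is its reverse complement and CACGTG holds both. The windows are Egln3 at chr12:54203825-54204124 on the minus strand, Hilpda at chr6:29272376-29272675 on the plus strand, Bnip3 at chr7:138909457-138909756 on the minus strand and Ldha at chr7:46845554-46845853 on the plus strand.
Egln3: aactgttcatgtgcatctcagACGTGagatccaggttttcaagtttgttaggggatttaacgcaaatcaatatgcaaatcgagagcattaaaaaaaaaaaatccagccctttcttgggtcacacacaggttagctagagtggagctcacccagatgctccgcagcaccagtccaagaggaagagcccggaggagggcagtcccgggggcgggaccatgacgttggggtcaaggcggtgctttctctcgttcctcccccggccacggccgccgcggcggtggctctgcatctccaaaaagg
Hilpda: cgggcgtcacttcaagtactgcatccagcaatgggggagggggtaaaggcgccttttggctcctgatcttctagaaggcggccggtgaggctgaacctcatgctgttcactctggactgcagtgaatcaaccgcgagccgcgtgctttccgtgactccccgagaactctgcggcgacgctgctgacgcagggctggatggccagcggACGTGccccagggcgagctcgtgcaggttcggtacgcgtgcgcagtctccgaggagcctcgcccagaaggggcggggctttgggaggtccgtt
Bnip3: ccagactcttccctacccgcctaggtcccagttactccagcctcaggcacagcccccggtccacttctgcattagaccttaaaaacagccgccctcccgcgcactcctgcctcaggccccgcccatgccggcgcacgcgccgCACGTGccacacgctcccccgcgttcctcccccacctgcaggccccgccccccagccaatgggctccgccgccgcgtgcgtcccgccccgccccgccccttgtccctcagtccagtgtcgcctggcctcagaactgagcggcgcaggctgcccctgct
Ldha: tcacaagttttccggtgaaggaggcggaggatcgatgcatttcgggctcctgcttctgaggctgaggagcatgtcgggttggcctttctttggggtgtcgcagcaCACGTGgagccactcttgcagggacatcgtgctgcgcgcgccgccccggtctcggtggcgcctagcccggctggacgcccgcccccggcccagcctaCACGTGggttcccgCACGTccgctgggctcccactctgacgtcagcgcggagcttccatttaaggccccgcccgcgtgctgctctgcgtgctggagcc
With the start site as position 0, the match began at -229 in Egln3 and at -43 in Hilpda. Bnip3 held 1 CACGTG, and Ldha held 2 CACGTG and 1 further match. ACGTG on either strand was found in 6447 of 32851 RefSeq promoter windows (19.6%). It was found in 7 of 13 windows of the hypoxia list (53.8%) and in 10 of 21 of the glycolysis list (47.6%). CACGTG was found in 7.15% of all windows, in 2 of 13 hypoxia windows (15.4%) and in 1 of 21 glycolysis windows (4.76%). A second pattern, TGCNCNC with N for any base, was found in 51.0%, 69.2% and 81.0% of these windows. A higher share than in all windows was therefore not particular to ACGTG. Of the 11 hypoxia genes past the adjusted p, 8 had an entry and 6 held ACGTG (Vegfa, Bnip3, Egln3, Hilpda, Slc2a1 and Mif). Of the 12 glycolysis genes past it, 12 had an entry and 8 held ACGTG. Some genes have more than 1 window, and a gene was counted when any of them held ACGTG. These counts by gene therefore cannot be set beside the 19.6%, which is by window. The second windows of Hilpda (chr6:29272238-29272537) and Ldha (chr7:46846832-46847131) held none, Vegfa had 1 window with and 1 without, and neither window of Spp1 held any. These are matches of letters, not measured binding.

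Matrix genes followed the hypoxia genes. Of 17 proteases, inhibitors and matrix proteins tested against C1q macrophages, 8 were called higher and 0 lower, at a median log2 change of 1.02. Mmp12, macrophage elastase (chromosome 9, 7344381 to 7369499, plus strand), stood at 333, 221, 154, 408, 154 and 207 CPM against 205, 125, 36.9, 81.5, 38.3 and 93.5. The members were higher in each mouse, although the ranges overlapped (log2 1.55, SE 0.28, edgeR adjusted p = 0.00139). The protease inhibitor Timp1 stood at 129, 307, 401, 431, 371 and 406 CPM against 118 ± 75.9 (log2 1.76, edgeR adjusted p = 0.00103), with its lowest value in the control library. The sheddase Adam8 was higher by log2 1.47, the collagenase Mmp13 by 1.30, the matrix proteoglycan Vcan by 1.32 and Mmp19 by 1.02. Mmp19 was not called without the control, 2DG or anti-PD-L1 library, nor Mmp9 without anti-PD-L1 or 2DG plus anti-PD-L1. Mmp8 and Mmp9 were called at 19.1 and 4.23 CPM, and Mmp8 reached 68.7 CPM in the control and 15.3 or less elsewhere. Fn1, which encodes fibronectin, averaged 3607 against 1938 CPM and missed 2-fold (log2 0.96). Thrombospondin 1, Thbs1, was not called (log2 0.73, edgeR adjusted p = 0.133).

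Of 17 suppressive enzymes and checkpoint ligands tested, 3 were called higher and 0 lower, Nos2 and Ptgs2 among them. Nos2, inducible nitric oxide synthase, stood at 369.9, 198, 269, 221, 220.1 and 312 CPM against 102 ± 52.3 (log2 1.53, edgeR adjusted p = 0.00702). Ptgs2, which encodes cyclooxygenase 2, was higher by log2 1.20 (edgeR adjusted p = 0.0122) and was not called without the control library. Cd274, which encodes PD-L1, stood at 486 ± 99.1 against 446 ± 144 CPM and was not called (log2 0.23, edgeR adjusted p = 0.266).

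Heme, iron and oxidant genes gave 2 calls of 19, the cystine transporter Slc7a11 (log2 1.05) and the metallothionein Mt2 (log2 1.68). Slc7a11 was not called without the control or the 2DG library. Hmox1, heme oxygenase 1 and one of the label's own markers (chromosome 8, 75093621 to 75100589, plus strand), stood at 938, 465, 433, 178, 289 and 281 CPM in the members and 334, 160.5, 312, 139, 174 and 243 in C1q macrophages. It was higher in each mouse but below 2-fold (log2 0.87, edgeR adjusted p = 0.0199). Pf4, a platelet-type chemokine (chromosome 5, 90772435 to 90773383, plus strand) and the last of the label's markers, stood at 470, 183, 153, 416, 317 and 209 CPM against 384, 119, 167, 63.9, 176 and 90.4. It was higher in 5 of 6 mice and was not called (edgeR adjusted p = 0.0514). Neither of these markers therefore set the members apart from C1q macrophages by the rule for calls.

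Of 19 chemokines and receptors, 4 were called higher and 0 lower: Cxcl3, the monocyte attractant Ccl2 (log2 1.16), Ccl24 (log2 1.03) and Cxcl14. Without the control library neither Ccl2 nor Ccl24 was called. Cxcl14 stood at 69.6, 70.5, 32.3, 65.3, 31.7 and 52.4 CPM against 31.4, 33.3, 14.7, 26.0, 15.7 and 24.0, with an SE of its log2 ratio of 0.043 (log2 1.22, edgeR adjusted p = 6.34e-05). Of 15 interferon response genes, 3 were called higher (Ifit1, Ifit3 and Rsad2) and 0 lower, with 6 past the adjusted p upward and 4 downward. Rsad2, which encodes the antiviral enzyme viperin (chromosome 12, 26442746 to 26456452, minus strand), averaged 218 ± 85.0 against 78.4 ± 47.3 CPM (log2 1.66, edgeR adjusted p = 0.00168). Cxcl9, a T cell attractant induced by interferon gamma, went the other way at 171, 748, 1048, 651, 1092 and 798 against 609, 1149, 1152, 1905, 1366 and 1109.7 CPM (log2 -0.75, edgeR adjusted p = 0.0307), short of 2-fold.

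Few lysosome and lipid genes reached 2-fold. Of 25 lysosome genes 2 were called higher, the protease Ctsl at 756 ± 101 against 367 ± 121 CPM (log2 1.16, edgeR adjusted p = 0.00103) and the proton pump subunit Atp6v0d2 at 4.18 against 1.31 CPM. Atp6v0d2 was not called without the control, 2DG, 2FF or anti-PD-L1 library. Of 18 lipid uptake and export genes 0 were called by edgeR or by DESeq2, while 5 passed the adjusted p upward and 2 downward (6 and 2 at an unadjusted p under 0.05). Trem2, a lipid receptor, stood at 205 ± 52.0 against 169.7 ± 28.8 CPM (log2 0.32), and Apoe at 2690.2 against 4280.2 (log2 -0.60). Of 9 receptors for osteopontin and Gpnmb, the integrin chain Itgb3 was called higher at 2.24 against 0.740 CPM. Cd44 averaged 1484 against 1160.3 CPM (edgeR adjusted p = 0.122). Of 10 monocyte genes 1 was called, F13a1, which encodes a coagulation factor subunit, at 1924, 510.1, 439.8, 762, 801 and 673 CPM (log2 1.45). The lists of 12 cell cycle genes and of 15 dissociation and stress genes held 0 calls by edgeR or DESeq2, with 0 and 2 genes upward and 1 and 2 downward at an unadjusted p under 0.05. Thinned to 5000 UMIs per cell, 6 of the 12 cell cycle genes were called lower. Of 11 N-glycan branching and fucosylation enzymes 0 were called by edgeR or DESeq2, and 2 upward and 2 downward had an unadjusted p under 0.05. Mgat5, the branching enzyme at the center of the study, stood at 252 ± 22.9 against 259 ± 22.5 CPM (log2 0.03, edgeR adjusted p = 0.818), and Fut8 at 48.5 against 58.3 (log2 -0.20).

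Other genes were called lower in the members than in C1q macrophages. Retnla, a secreted product of alternatively activated macrophages (chromosome 16, 48842551 to 48844461, plus strand), stood at 3.8, 0.763, 2.12, 0.294, 1.51 and 0.161 CPM in the members and at 93.6, 53.3, 11.5, 9.93, 129.6 and 70.2 in C1q macrophages. It was 31.3-fold lower without overlap (edgeR adjusted p = 0.000255). Prg4, which encodes lubricin, was 15.7-fold lower at 3.66 against 79.9 CPM (edgeR adjusted p = 0.000311). The ion channel gene Tmem176b was 4.04-fold lower at 36.2, 38.4, 66.3, 40.0, 57.4 and 40.1 against 232, 203, 226, 188, 171 and 145 CPM (edgeR adjusted p = 6.15e-05), and the phospholipid transfer gene Pltp stood at log2 -1.59. Of 14 resident-type macrophage genes, 5 were called lower (Lyve1, Gas6, Selenop, Cbr2 and Vsig4) and 0 higher, at a median of -0.75. Selenop, a selenium carrier, averaged 142 ± 52.5 against 325 ± 80.1 CPM (log2 -1.17). Lyve1 and Vsig4 were near 0 in the members at 0.315 and 0.203 CPM. Without the control library, 3 of the 14 were called lower, and Selenop and Gas6 were not. Gas6 also lost its call without 2DG, 2FF or anti-PD-L1, and Vsig4 without any 1 of the libraries other than the control. All 7 MHC class II genes passed the adjusted p downward, but 0 reached the 2-fold of a call by edgeR or DESeq2, at a median of -0.73. H2-Aa (chromosome 17, 34282744 to 34287823, minus strand) averaged 2336 ± 1022 against 3995 ± 887 CPM (log2 -0.84, edgeR adjusted p = 0.00469). Of 9 MHC class I genes 0 passed the adjusted p by edgeR and 0 were called by DESeq2, and 4 had an unadjusted p under 0.05, all downward. Of 6 complement genes outside C1q 0 were called by either tool, with 2 upward and 3 downward at an unadjusted p under 0.05.

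The C1q macrophages had to hold at least 5 C1q UMIs and the members did not. When the members were also required to hold 5, an alternative added after the data were seen, 122 genes were higher. The hypoxia list then kept 7 calls of 14, the matrix list 4 upward and 1 downward, the interferon list 1, the suppressive list 2, the heme list 1, the chemokine list 3 and the resident-type list 2 downward. Of 56 named genes called before, 39 were called again. Ccl2, Ccl24, Ptgs2, Slc7a11, Selenop, Gas6, Vsig4, Vcan, Mmp8, Mmp9, Mmp19, Ifit1 and Ifit3 were among those that were not.

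**Figure D3:**
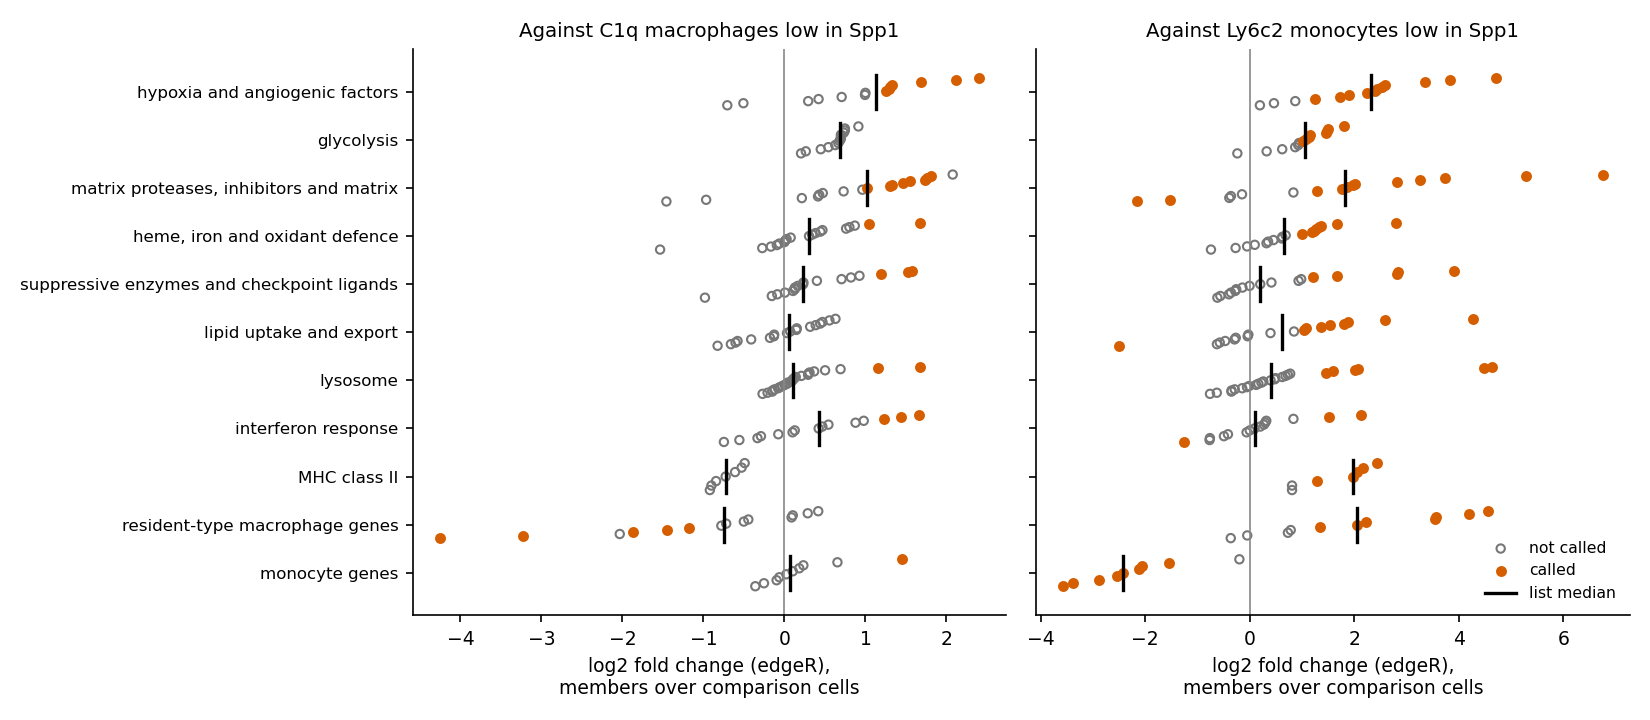
Log2 fold change of each tested gene of 11 lists in the members against C1q macrophages and against Ly6c2 monocytes (edgeR), with filled dots for called genes and a bar at each list's median. The hypoxia and matrix medians lie above 0 in both comparisons, whereas the MHC class II median lies below 0 against C1q macrophages and above 0 against monocytes.

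Against Ly6c2 monocytes the differences were more numerous. The genes furthest above were Cxcl14 at 59.2-fold, the monocyte attractant Ccl8 at 54.7-fold, Pf4 at 47.3-fold and Mmp12 at 39.1-fold (edgeR adjusted p = 7.7e-08 for Pf4). Ccl8 stood at 17.3, 345, 634, 204, 761 and 303 CPM in the members and at 6.05 ± 3.6 in the monocytes. Pf4 averaged 291 against 6.23 CPM and Mmp12 246 against 5.75. The tetraspanins Cd81 and Cd63 were 36.7-fold and 22.3-fold higher, Pdpn log2 4.85 and the lectin Mgl2 log2 4.29. Hmox1 was called here (log2 1.68, edgeR adjusted p = 1.62e-05).

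Of 14 hypoxia genes 11 were called higher than in monocytes and 0 lower, at a median log2 change of 2.32 beside 0.03 for all genes. Of 14 glycolysis genes 8 were called, at a median of 1.05, and of 16 matrix genes 10 were called higher and 2 lower. Lipid genes, which did not differ by 2-fold from C1q macrophages, were called higher for 8 of 18 (Cd36, Msr1, Trem2, Lpl, Apoe, Abca1, Nr1h3 and Ch25h) and lower for Apoc1. Of 25 lysosome genes 6 were called higher, of 18 heme and oxidant genes 8, of 19 chemokines and receptors 11, of 11 resident-type genes 7 and of 7 MHC class II genes 5, all with 0 lower. H2-Aa averaged 549 ± 249 CPM in the monocytes, so the members lay between them and the C1q macrophages (log2 2.06 against monocytes, edgeR adjusted p = 4.91e-07). The efferocytosis receptor Mertk averaged 199.9 against 17.0 CPM. Of 12 cell cycle genes 10 were called higher, and 5 with every cell thinned to 5000 UMIs. Of 9 receptor genes, Itgav, Itgb5, Itga9 and Sdc4 were called higher and Itga4 lower. Of 11 glycan enzymes Mgat4a was called higher, and Mgat5 stood at log2 0.52 (edgeR adjusted p = 0.000929). Of 17 suppressive genes 5 were called higher (Nos2, Acod1, Pdcd1lg2 and Ptgs2 among them), of 15 interferon genes Cxcl9 and Iigp1 higher and Irf7 lower, and of 15 stress genes Egr1 higher and Hspa1a and Hspa1b lower. Of 6 complement genes C3ar1, C5ar1 and Cfp were higher, and of 9 MHC class I genes 0 were called by edgeR or DESeq2, with 2 upward and 1 downward at an unadjusted p under 0.05.

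Monocyte genes were lower in the members, with 8 of 9 called and 0 higher, at a median of -2.42. Plac8 stood at 754, 438, 719, 465, 946 and 1005 CPM against 3637 ± 939.8 (log2 -2.42). Haptoglobin, Hp, averaged 64.4 against 449 CPM and Chil3 350.2 against 1251. The gene furthest below monocytes was Stxbp6, 17.9-fold lower at 14.8 against 275 CPM. The median monocyte had 6810 to 12724 UMIs, fewer than the median member in each library.

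The share of members with a UMI of a gene differed between genes and libraries. Such shares do not show kinds of member, since low counts alone leave cells without a UMI. With each cell thinned to 5000 UMIs (67, 7, 8, 15, 8 and 15 shallower cells left out), a UMI of Mmp12 was seen in 20.4, 19.0, 15.3, 24.9, 13.8 and 16.9% of members, so most had none at this depth. Cxcl9 was seen in 9.10, 43.1, 55.3, 37.4, 49.1 and 37.6% and H2-Aa in 35.1, 89.7, 91.3, 77.9, 81.6 and 71.4%, both lowest in the control. The resident-type gene Folr2 was seen in 3.21, 10.0, 9.11, 6.92, 8.13 and 6.37%, Ly6c2 in 16.9, 8.28, 13.7, 16.6, 22.3 and 25.9% and the proliferation gene Mki67 in 5.69, 8.62, 8.07, 6.23, 6.71 and 9.23%. Without thinning, the control and 2DG shares were 13.7 and 51.5% for Cxcl9 and 44.1 and 93.3% for H2-Aa. T cells, which should lack Cxcl9, had a UMI of it in 2.21% of cells in the control and 5.55% in 2DG, at the lower depths given above. With each cell thinned to 2000 UMIs, Cxcl9 was seen in 6.91, 31.2, 45.0, 30.6, 40.7 and 30.8% of members. In T cells it was seen in 0.81, 2.03, 2.45, 2.20, 1.16 and 2.17%. Mmp12 was seen in 15.4, 13.2, 10.2, 20.7, 10.0 and 11.6% of members and 1.62, 0.23, 0.21, 0.20, 0.04 and 0.22% of T cells. No T cell share was taken for H2-Aa, Folr2, Ly6c2 or Mki67.

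Between libraries, genes are given as summed CPM and as the log2 ratio of CPM plus 5, for genes whose UMIs in both libraries together reached 50. Both inhibitor comparisons below share the control library, so their values are set side by side and are not separate evidence. In 2DG, 181 of 10316 genes were at least 2-fold above the control (1.75%) and 153 below (1.48%), and in 2FF 253 of 10556 were above (2.4%) and 218 below (2.07%). With 1 CPM added in place of 5, the counts were 333 above and 263 below for 2DG. For 2FF they were 487 and 365. The median over all genes was 0.10 in 2DG and 0.11 in 2FF, and with ratios centred on it the counts were 142 above and 194 below for 2DG, and 190 above and 270 below for 2FF.

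MHC class II was low in the control members. H2-Aa stood at 659.8, 2917, 3535, 2327, 2853 and 1724 CPM, a control value 646 to 673 by its 95% Poisson interval. All 7 genes of the list were at least 2-fold higher in 2DG and in 2FF than in the control, at medians of log2 1.92 and 2.09. The summed list was 4669, 18346, 21399, 15025, 17568 and 11423 CPM in the members, with Cd74 the most abundant. In C1q macrophages it was 14855, 25788, 26514, 27657, 24950.1 and 20329 CPM and in Ly6c2 monocytes 1043, 4833, 3454, 4619, 4732 and 3048, also lowest in the control. Of 9 MHC class I genes 0 and 5 were 2-fold higher, at medians of 0.70 and 1.05. C1qa, the first chain of complement C1q, stood at 635, 1992, 2509.9, 1626, 2026 and 1457 CPM, and 4 and 5 of 9 complement genes were higher.

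Several chemokine, hypoxia and matrix genes were higher in the control members. Cxcl3 had log2 ratios of -4.01 and -4.25 against the control, and Ccl2 (1569, 299, 432, 380.4, 626 and 1056 CPM) was also highest there. Of 19 chemokines and receptors, 6 were lower and 2 higher in 2DG, and 8 lower and 3 higher in 2FF. Ccl8 was the highest gene in both comparisons, at log2 3.97 and 4.84. Hmox1 had ratios of -1.0 and -1.11, and the matrix gene Thbs1 stood at 2036, 483, 309, 443, 542 and 597 CPM. Of 14 hypoxia genes, 4 were lower and 1 higher in 2DG, and 6 lower and 2 higher in 2FF, with the summed list at 4497, 3029, 2764, 3167, 2548 and 2997 CPM. None of the 14 glycolysis genes passed 2-fold in either (medians -0.14 and -0.21). Of 15 interferon genes 5 and 8 were higher and 0 lower. Matrix genes gave 2 higher and 5 lower of 15 in 2DG, and 2 and 6 in 2FF. Suppressive genes gave 1 higher and 3 lower of 16, and 2 and 3 of 17. Heme genes gave 0 and 4 of 17, and 2 and 3 of 19, and lipid genes 2 and 1, and 5 and 3, of 18. No glycan enzyme passed 2-fold in either comparison among the 11 with enough UMIs.

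**Figure D4:**
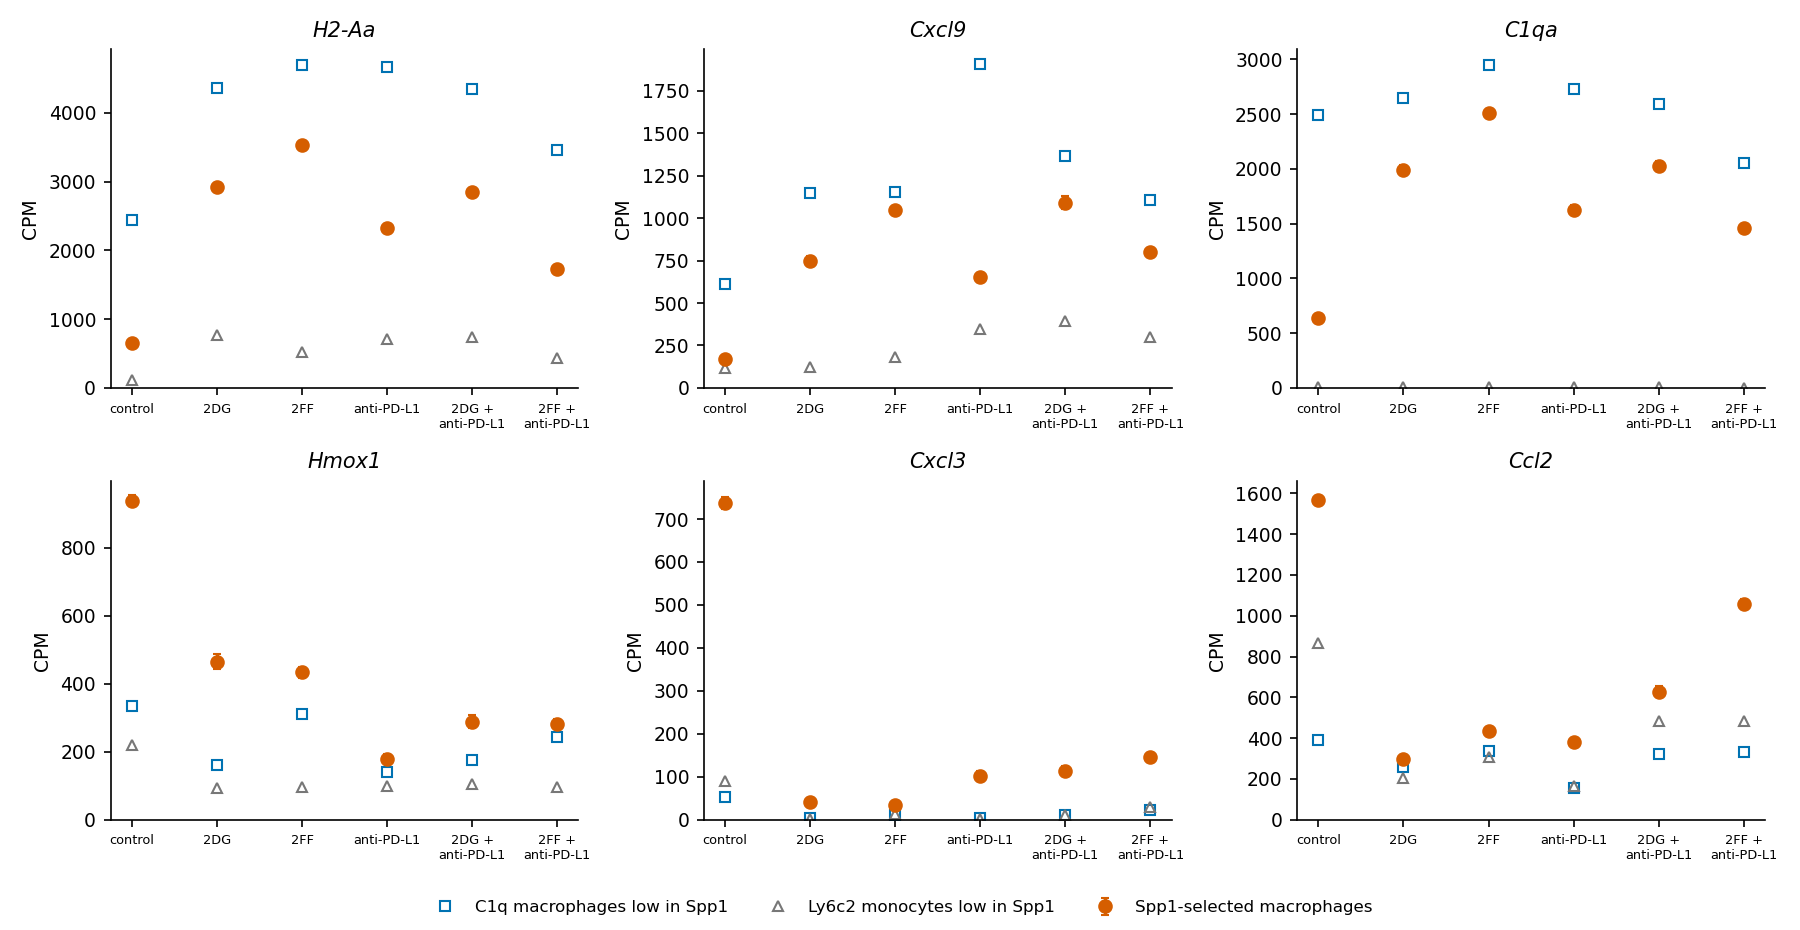
CPM of H2-Aa, Cxcl9, C1qa, Hmox1, Cxcl3 and Ccl2 in each library for members, C1q macrophages and Ly6c2 monocytes, with 95% Poisson intervals for the members. The control members are lowest in H2-Aa, Cxcl9 and C1qa and highest in Hmox1, Cxcl3 and Ccl2.

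Markers of other cells moved with some of these differences. The 5 neutrophil markers summed to 292.9 CPM in the control members (72.9% of cells with a UMI, S100a8 the most abundant) and to 50.6 to 82.8 CPM elsewhere. Csf3r, Cxcr2 and Retnlg among them were capped by the rule that chose the members. S100a8, chosen after its values were seen, stood at 187, 31.3, 8.49, 7.64, 14.5 and 14.0 CPM. The 3 NK cell markers summed to 60.5 CPM in 2DG, 60.3 in anti-PD-L1 and 55 in 2DG plus anti-PD-L1, against 0.844 in the control, most of it Gzma. Keratins and Epcam summed to 138.5 CPM in 2FF plus anti-PD-L1 (5.53% of cells) and 29.4 in 2FF, and to 1.27 to 5.09 elsewhere. Fibroblast markers reached 35.4 CPM in 2DG plus anti-PD-L1. Of the T cell markers, Cd3d, Cd3e and Cd3g were 0 by the rule and Trac and Cd8a brought the list to 0.563 to 4.73 CPM. B cell markers, with Cd79a at 0 by the rule, summed to 2.04 to 3.92 CPM. Dendritic cell markers summed to 3.22 to 12.2 CPM and mesothelium markers to 0 to 4.51. The endothelium list stood at 64.0 to 116.7 CPM and was nearly all Pecam1, and the osteoclast list at 39.0 to 68.9 CPM was mostly Acp5, with Calcr at 0 in 5 of 6 libraries. The part of these markers in the differences between libraries was not tested.

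The 3 pairs with and without anti-PD-L1 (control, 2DG and 2FF backgrounds) share no library. Of 8641 genes, 22 were at least 1.5-fold higher with the antibody in all 3 pairs (0.255%) and 1 was lower (0.0116%). Ranked by the smallest of the 3 changes and without predicted genes, of which A330040F15Rik would have come after Ifi205, the first were Ifi205, Ffar2, Rsad2 and Ddx60. Ifi205, an interferon-inducible DNA-sensing family member, stood at 28.9, 35.4 and 48.2 CPM without and 70.6, 91.9 and 103.7 CPM with the antibody. Ffar2, a receptor for short-chain fatty acids, stood at 1.13, 5.09 and 9.14 CPM without and 26.5, 16.9 and 20 with it. Rsad2 stood at 120, 151 and 162 CPM without and 259, 331 and 286 with it, and the helicase Ddx60 at 19.6, 23.2 and 25.5 against 38.2, 47.8 and 47.8. For each of these, all 3 values with the antibody lay above all 3 without. These genes were chosen for being higher in every pair, which favors that separation, and its share over all genes was not taken. The gene that was lower was Hmox1, at 938, 465 and 433 CPM without and 178, 289 and 281 with it. In an edgeR fit over the 6 libraries with the inhibitor background as a block, added after the data were seen, 0 of 11616 genes passed an adjusted p under 0.05 in either direction (0%), and the smallest adjusted p was 0.476. At an unadjusted p under 0.05, 275 were higher (2.37%) and 114 lower (0.981%). DESeq2 passed 2, Ifi205 (log2 1.21, DESeq2 adjusted p = 0.0213) and Rsad2 (log2 0.98, DESeq2 adjusted p = 0.0342), both higher.

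Interferons drive the genes of the interferon list, and 7 of 15 were past 1.5-fold in all 3 pairs (Ifit1, Ifit2, Ifit3, Rsad2, Irf7, Oasl1 and Ifi205). In the fit over all 6 libraries, 15 of 15 had a log2 change above 0 and 9 an unadjusted p under 0.05, and 0 passed the adjusted p with edgeR. The medians over the list in the 3 pairs were log2 1.16, 0.75 and 0.54, beside 0.14, -0.04 and -0.02 for all genes. Cxcl9, Gbp2, Iigp1, Bst2, Gbp5 and Cxcl10 were higher in the control and 2DG pairs and lower in the 2FF pair. There Cxcl9 stood at log2 -0.39 and Iigp1 at -0.45, whereas Gbp5 and Cxcl10 stood at -0.02. The summed list was 1341, 2909, 4014, 3135, 4907 and 3942 CPM in the members. In C1q macrophages 2 of 15 were past 1.5-fold in all 3 pairs, with 20 of 8870 genes in all (0.225%), and in Ly6c2 monocytes 10 of 15, with 33 of 7540 (0.438%). All 3 ratios were above 0 for 8 of the 15 genes in the members, 11 in C1q macrophages and 14 in monocytes. The list's medians in C1q macrophages were log2 1.26, 0.59 and 0.19, beside -0.02, -0.07 and -0.02 for all genes. In monocytes they were 1.32, 1.23 and 0.68, beside 0.08, -0.09 and -0.04. The difference between the 3 kinds of cell was not tested. MHC class II had a median of log2 1.64 in the control pair, -0.05 in the 2DG pair and -0.83 in the 2FF pair, so it did not move one way across the pairs.

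**Figure D5:**
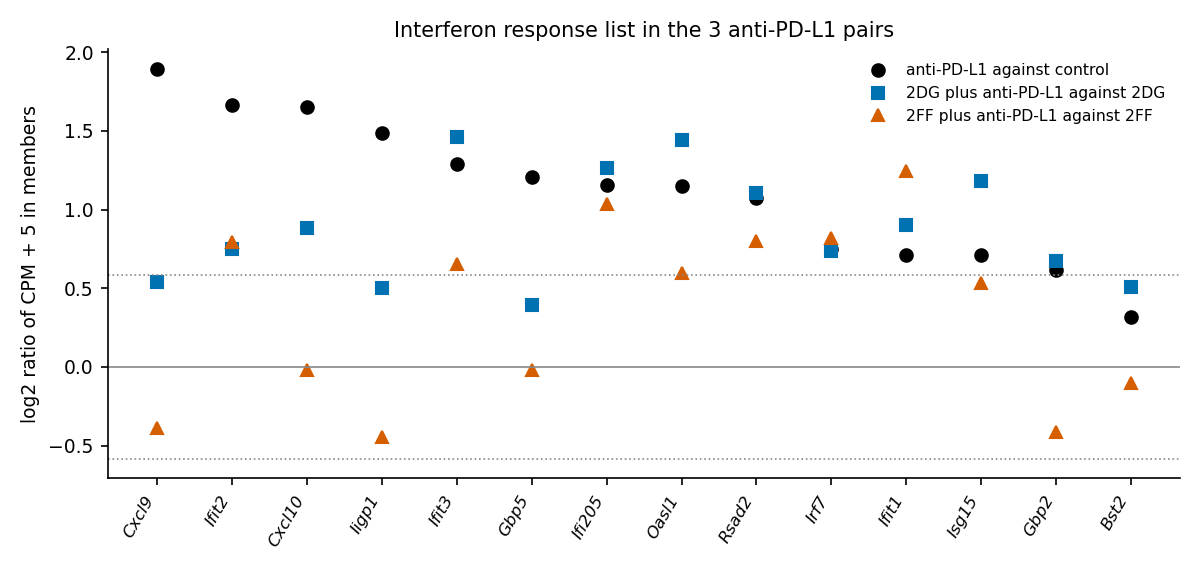
Log2 ratio of CPM plus 5 with against without anti-PD-L1 for 14 of the 15 interferon genes in the members, with 1 symbol per pair and dotted lines at 1.5-fold. Ifi205, Rsad2 and Oasl1 lie beyond the upper line in all 3 pairs. Cxcl9, Gbp2, Iigp1, Bst2, Gbp5 and Cxcl10 fall below 0 in the 2FF pair.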

How the data were processed

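By the study's description, cells from the KPCA tumors of 6 mice, 1 per treatment, were sequenced as single cells. For each cell and each of 32285 features the authors deposited raw counts of UMIs without normalization, made with Cell Ranger on mouse mm10 (GRCm38). The matrix header names version 7.0.0 and the submitters' processing notes 3.1.0. Samples were grouped by their treatment label. Cells with under 250 genes or over 5% mitochondrial UMIs were left out, which the deposited counts still held.

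Members were chosen by UMI limits, and the members, gene lists and tests were set with earlier results of these data known. Counts were summed per library and kind of cell and tested over all genes with edgeR 4.0.16 in R 4.3.3 (TMM, filterByExpr, quasi-likelihood test, the mouse as a block because both sums come from it, Benjamini-Hochberg). The p-values rest on 6 mice under 6 treatments. Genes of the limits were left out of counts. Levels are CPM of summed UMIs, with exact Poisson or Clopper-Pearson intervals at 95% that cover counting error only. Values between libraries are log2 ratios of CPM plus 5 with no test, except that the antibody was tested over its 3 pairs, with 2 residual degrees of freedom.

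Named were the genes of 18 lists, the 12 highest and 12 lowest called genes of each tested comparison that moved one way in all 6 mice with at least 50 CPM in the higher kind, and the 4 highest and 4 lowest of those past 1.5-fold in all 3 anti-PD-L1 pairs, ranked by the smallest change. Predicted genes, Xist, and the genes of mitochondria, ribosomal proteins, haemoglobin, immunoglobulins and T cell receptors were not eligible. Ccl5, S100a8, S100a9, Krt8, Krt18, Gzma, Il6, Cadm1 and Pdgfa were chosen after their values were seen. Of the list genes, 2 were not among the features. Some genes that the lists or ranks hold are counted but not reported here.

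Alternatives were DESeq2 1.42.0, no filter on low counts, no block, each library left out, a limit of 10 Spp1 and Gpnmb UMIs, comparison cells with up to 4, a 10% mitochondrial limit, cells thinned to 5000 UMIs, cells with keratin UMIs left out, and the deepest 5% of cells left out. No doublet caller was run, and the last of these stand in for one. In the thinned alternative, cells under 5000 UMIs were left out and the UMI limits were applied anew to the thinned counts. The shares of members with a UMI of a gene were thinned within the members as first chosen. Gene coordinates are those of GENCODE M21 on mm10, and promoters those of RefSeq on GRCm38.p6. Scripts ran in Python 3.11.15 with numpy 2.4.6, pandas 2.3.3, scipy 1.17.1 and matplotlib 3.10.9, and were tested on simulated data. Any free RNA and the 3′ ends of transcripts set what was seen, and antisense or overlapping genes were taken as the authors counted them.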

Additional observations from a re-analysis of the deposited data

Results flagged for a closer look

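The anti-PD-L1 ratio of several genes in the Spp1-selected macrophages went at least 2-fold one way against the control and at least 2-fold the other way on an inhibitor background. Each side was 1 library against 1 library, so the differences were not tested, and the control side of each holds the library with few T cells and many neutrophils. Several were chemokines. On the log2 scale Ccl2 stood at -2.03 against the control, 1.05 against 2DG and 1.28 against 2FF. Ccl3 stood at -1.14 and, against 2DG, 1.33. Cxcl1 stood at -1.11, with 1.19 and 1.14 against 2DG and 2FF, Cxcl2 at -1.04 with 1.18 and 1.11, and Cxcl3 at -2.79 with 1.37 and 1.95. The prostaglandin enzyme Ptgs2 stood at -2.05 with 1.12 and 1.05, and the collagenase Mmp8 at -1.86 with 1.21 and 1.04. The stress gene Zfp36 stood at -1.55 and 1.15 against 2DG, and Il6 at -1.77 and 1.29 against 2FF. The summed list of 15 dissociation and stress genes, Fos or Jun the most abundant, moved in the same directions in the members, from 11552 to 8968 CPM with anti-PD-L1 against the control, 8151 to 13517 against 2DG and 9244 to 10754 against 2FF. Its part in these ratios was not tested.

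Genes that were higher with anti-PD-L1 against the control and lower against 2FF were Ccl5 (2.83 and -1.05), Ccl8 (3.23 and -1.05), H2-Aa (1.81 and -1.03), Pdcd1lg2, which encodes PD-L2 (2.56 and -1.12), and Tanc2 (1.06 and -1.05). The share of members was -7.94 percentage points with anti-PD-L1 against the control and 0.70 against 2FF, also not tested. With cells thinned to 5000 UMIs and the limits applied anew, the difference against 2FF turned, at 3.57% with and 3.78% without the antibody. No group had 4 samples, so no single library was checked for standing apart from its group.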

How the results depend on the processing

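Each treatment was 1 mouse, the members were cut from the same cells as the kinds they were compared with, and Spp1 UMIs were seen in T cells, whose source (free RNA, doublets or the T cells) was not tested. Of C1q comparison counts, 220 higher genes became 342 with no filter on low counts, 142 without the mouse as a block and 122 for members with C1q (added after the data were seen). The 184 lower genes became 113 without the block and 284 with cells thinned to 5000 UMIs. Leaving out 1 library gave 191 to 243 higher and 129 to 168 lower genes. In the monocyte comparison, 1361 higher genes became 795 thinned, and leaving out 1 library gave 1232 to 1446 higher and 700 to 830 lower. Without the block they were 929 and 613, and DESeq2 gave 201 and 161 against C1q macrophages and 1372 and 751 against monocytes.

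Of 57 named genes called against C1q macrophages, DESeq2 kept 56 and lost Itgb3. Without the pairing by mouse, 40 of 52 kept their call, and Calhm6, Ccl24, Gas6, Ifit1, Ifit3, Mmp19, Mmp8, Ptgs2, S100a8, S100a9, Slc7a11 and Vcan lost it. The library left out cost these calls: the control that of Atp6v0d2, Ccl2, Ccl24, Gas6, Mmp19, Ptgs2, Selenop and Slc7a11, 2DG that of Atp6v0d2, Gas6, Mmp19, Slc7a11, Vcam1 and Vsig4, 2FF that of Atp6v0d2, Gas6, Krt8 and Vsig4, anti-PD-L1 that of Atp6v0d2, Calhm6, Gas6, Mmp19, Mmp9, Vcam1 and Vsig4, 2DG plus anti-PD-L1 that of Mmp9 and Vsig4, and 2FF plus anti-PD-L1 that of Krt8 and Vsig4. Members with C1q kept 39 of 56 calls, reversed 1 and lost Ccl2, Ccl24, Gas6, Ifit1, Ifit3, Mmp19, Mmp8, Mmp9, Nfia, Ptgs2, S100a8, S100a9, Selenop, Slc7a11, Vcan and Vsig4. Against monocytes 147 of 149 kept their call under DESeq2.

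The shares of members in the 6 libraries were 9.5, 2.88, 3.81, 2.59, 2.08 and 4.47% with 10 UMIs of Spp1 and Gpnmb, 9.66, 2.74, 3.78, 2.54, 2.15 and 3.57% thinned to 5000 UMIs, and 18.1, 5.58, 7.66, 6.51, 4.96 and 10.7% with no limit on Lyz2, which was added after the data were seen. The control stayed highest in each. The thinned shares rest on cells of at least 5000 UMIs, with the limits applied anew to the thinned counts. Thinned, the share in 2FF plus anti-PD-L1 was below that in 2FF, as it was for members with C1q (3.65% against 3.87%). With 1 CPM added, 333 genes were higher and 263 lower in 2DG, and 487 and 365 in 2FF. Of 1165 ratios of named genes between libraries, 742 left their counting interval with cells thinned to 5000 UMIs, by a median shift of 0.15 (log2) over all, and 216 of 269 past 2-fold stayed past it. Centring moved 459 of 1400 out of it, by a median shift of 0.10, and 282 of 302 stayed past 2-fold. With at least 200 UMIs 11 genes were higher in all 3 anti-PD-L1 pairs, and without the deepest 5% of members 2 were lower. The added anti-PD-L1 fit with the background as a block passed 0 genes upward, DESeq2 2 and edgeR without the block 0. Krt8 went to -0.0795 (log2) against C1q macrophages for members with C1q, and without the deepest 5% Krt8 and Krt18 went to -1.19 and -0.74 in 2FF plus anti-PD-L1 against 2FF. The causes were not tested.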

Other observations

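Many cells with Spp1 fell outside the members on 1 limit. The Spp1 limits alone took in cells with 98.0, 93.8, 94.4, 93.7, 91.1 and 96.1% of each library's Spp1 UMIs (the 6 libraries as ordered above). Cells that met every limit other than that on Lyz2, the lysozyme gene of macrophages and neutrophils, numbered 607, 133, 215, 269, 157 and 362, and held 26.9, 13.4, 15.6, 33.4, 21 and 25.3% of the Spp1 UMIs. Their median Lyz2 count was 1 in every library, at medians of 7008 to 9296 UMIs per cell.

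These cells with little Lyz2 held more Inhba and Egln3 than the members and less C1qa and Adgre1, the F4/80 gene. Inhba stood at 1055, 363, 432, 724, 651 and 1024 CPM in them, against 261, 96.7, 86.4, 196, 141 and 189 CPM in the members. Egln3 stood at 817, 253, 195, 483, 189 and 270.5 CPM against 283, 107, 64.8, 115, 48.1 and 74.1. C1qa stood at 134, 856, 1027, 380, 1282 and 552 CPM and Adgre1 at 34.4, 75.8, 78.6, 46.1, 98.5 and 55.3. The order was the same in each of the 6 libraries for Inhba, Egln3, C1qa and Adgre1. These cells were singled out after the values were seen, and the difference was not tested.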
